A study of Aspergillus niger with 9 samples.

Results

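The transcriptome described here is that of MA234.1, the strain of Aspergillus niger from which the other strains of the series were made. It is represented by 3 of the 9 libraries, and each of the 11187 genes of the deposited count table was considered in them. The libraries were taken by their strain label. All 9 libraries are labelled vegetative mycelium grown in shaken liquid culture, with 3 biological replicates per strain. The other 6 libraries came from the deletion strains ΔaslA and ΔaslB, 3 each, both with MA234.1 given as their background, and no further allele of MA234.1 is labelled. The protocol shared by all libraries names a 16 h culture in minimal medium with 25 mM glucose, 0.2% casamino acids and 0.5% yeast extract, and a 4 h culture in minimal medium with 25 mM xylose. The labels do not say from which of these a library was made, so the carbon source behind each value below is not known. How many clones or transformants each deletion strain stands for is not stated either. No gene of the deposited annotation carries the name aslA or aslB, so the deletions could not be checked by name.

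Aspergillus niger is a filamentous fungus that grows as branched hyphae and feeds by secreting enzymes and taking up the sugars, amino acids and peptides they release. On sugars its hyphae run glycolysis, while growth on acetate, ethanol, fatty acids or amino acids uses the glyoxylate cycle and gluconeogenesis, which rebuild hexoses from acetyl-CoA and organic acids. In aspergilli the repressor CreA lowers transcription of genes for other carbon sources while glucose is present, XlnR activates xylan- and xylose-related genes, and AreA and PacC act in nitrogen and pH regulation. Conidiophores, the stalks that bear the pigmented spores called conidia, normally form on hyphae exposed to air and are controlled by the chain BrlA, AbaA and WetA.

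The MA234.1 libraries held 11321882 (replicate 1), 13493729 (replicate 2) and 13177156 (replicate 3) counts, and the deepest library of the series 19110786, so 3 counts stood for 0.265, 0.222 and 0.228 CPM in the MA234.1 libraries before TMM scaling. CPM, the usual depth-scaled count of a library, is given after TMM scaling, and levels of different genes are compared only as FPKM, the deposited value per length, of which there is 1 per strain with no replicate error. Log2 CPM of the MA234.1 libraries correlated across 9568 genes at r = 0.984 for replicates 1 and 2, 0.984 for 1 and 3, and 0.991 for 2 and 3; genes are not independent replicates. The corresponding chi-square per degree of freedom was 5.25, 5.21 and 2.32, above sampling noise for every pair. Between strains, MA234.1 correlated at 0.737 to 0.764 with the ΔaslA libraries. The library labelled ΔaslB replicate 2 correlated with MA234.1 at 0.970 to 0.978, whereas ΔaslB replicates 1 and 3 did so at 0.798 to 0.803 and 0.772 to 0.777. For that reason ΔaslB values are given library by library, and the only tests set MA234.1 against ΔaslA. The ΔaslB libraries still entered the spread estimated for those tests. Within ΔaslA, replicate 2 stood apart from replicates 1 and 3, with a chi-square per degree of freedom of 80.3 and 79.4 against 2.37 for the other pair.

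Hyphal markers were present, and most genes matched as markers of conidiophores and conidia were low. Of 15 genes matched as hyphal markers (actin, tubulins, tef1, gpdA and chitin synthases), 13 reached 10 FPKM and their summed share was 1.31% to 1.33% of counts in MA234.1, against 1.85% to 2.46% in ΔaslA. That difference was carried by tef1: without it the other 14 summed to 1.11% to 1.13% in MA234.1 and 1.03% to 1.33% in ΔaslA, and the groups overlapped. Of 20 genes matched as conidiation markers, 6 reached 10 FPKM, 9 were under 1 FPKM and 2 had no count. Their median was 1.26 FPKM, below the 16.1 of all genes, while the highest reached 29.1 FPKM, above it. Their summed share was 0.0181% to 0.0194% in MA234.1 and 0.0104% to 0.0116% in ΔaslA. The conidiation regulator abaA (ATCC64974_20070) stood at 0.825, 2.01 and 1.46 CPM, and both genes matched to dewA, a spore-wall hydrophobin, had no count. brlA (ATCC64974_72370) was at 36.9, 41.0 and 39.1 CPM and wetA (ATCC64974_16190) at 24.0, 20.9 and 23.3 CPM, so these regulators were counted in each library. Among the 20 are 8 genes matched as conidial pigment polyketide synthases, and which of them, if any, is the conidial enzyme was not tested. No gene was matched to vosA, olvA or brnA. All libraries are bulk samples, in which fewer cells of a type and less RNA per cell cannot be told apart.

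Counts were spread over many genes. The 10 most counted genes held 8.12%, 8.16% and 8.06% of all counts in the MA234.1 libraries, the top 100 held 30.0%, 29.8% and 29.7%, and the top 1000 held 68.5%, 68.0% and 68.0%. The libraries differed little: 364, 374 and 375 genes made up 50% of the counts, and 3227, 3266 and 3268 genes made up 90%. Per strain, the top 10 took 8.11% ± 0.0518 in MA234.1 and 6.44% ± 0.411 in ΔaslA (SD, n = 3 each), and every MA234.1 library lay above every library of the other strains, whose highest was 6.85%. Genes averaging over 1000 CPM numbered 146 and took 35.1% ± 0.243 of counts; 1768 genes of 100 to 1000 CPM took 45.5% ± 0.0683, and 4762 genes of 10 to 100 CPM took 18.3% ± 0.173. Below 10 CPM lay 2541 genes of 1 to 10 CPM with 1.12% ± 0.0115 of counts, 1507 genes under 1 CPM with 0.0515% ± 0.00386, and 463 genes without a count.

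**Figure D1:**
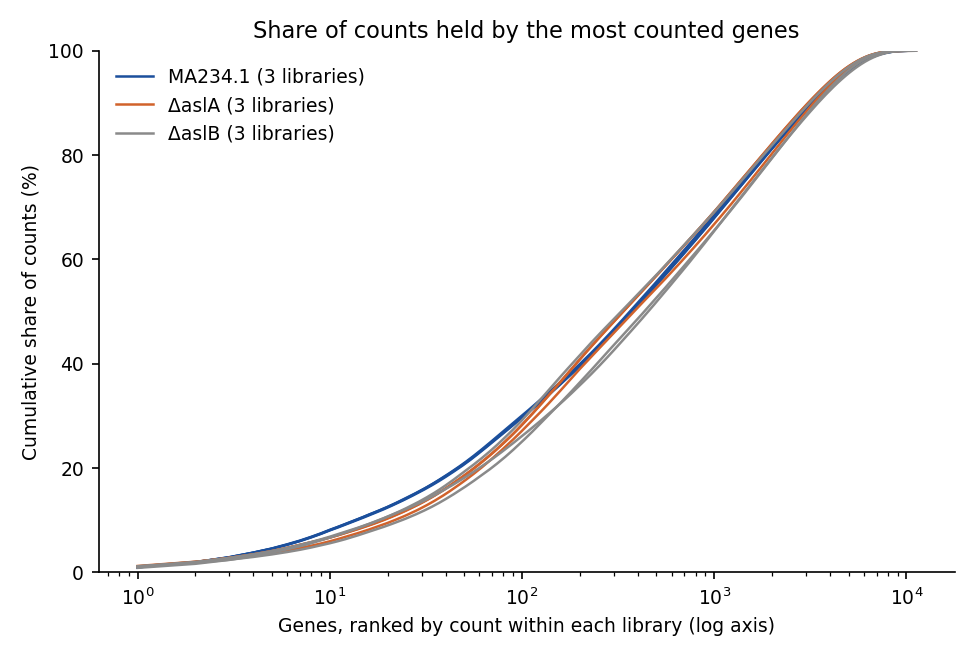
Cumulative share of counts (%, vertical axis) against the number of genes ranked by count within each library (log axis), 1 line per library, coloured by strain. The 3 MA234.1 lines nearly coincide and run above the others between ranks 10 and 50, with 8.06% to 8.16% of counts in their top 10 genes.

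On the FPKM scale the median gene stood at 16.1, with 2.50 at the 25th, 57.0 at the 75th, 179 at the 90th and 1700 at the 99th percentile. A level of 1000 FPKM or more was reached by 222 genes and 500 FPKM by 466, while 2007 genes were under 1 FPKM. Rank by FPKM and rank by count gave different leaders, since a long transcript collects more reads: the 20 highest of each order shared 10 genes, and the 50 highest shared 31. The glutamate dehydrogenase gene gdh-1, phosphoenolpyruvate carboxykinase, acuF, and the alcohol dehydrogenase gene adh1 had 368079, 367735 and 366179 counts over the MA234.1 libraries, and their order differed between libraries. An aegerolysin-family gene had the highest FPKM.

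The 20 most abundant transcripts by FPKM are given by the roles of their products. Highest was ATCC64974_62810 (contig 9, 50026 to 50529), whose closest SwissProt protein is terrelysin of A. terreus, a member of the aegerolysin family of small membrane-binding proteins, at 13769 FPKM and 6972, 6681 and 6716 CPM. Next came adh1 (ATCC64974_65340, contig 10, 684477 to 685638), an alcohol dehydrogenase that interconverts ethanol and acetaldehyde, at 10576 FPKM and 10261, 9650.4 and 9589 CPM. aciA (ATCC64974_32430, contig 4, 1798648 to 1800063), the NAD-dependent formate dehydrogenase that oxidises formate to carbon dioxide, came after it at 9994 FPKM and 9441, 8874 and 8919 CPM. gpdA (ATCC64974_72940), the glycolytic glyceraldehyde-3-phosphate dehydrogenase whose promoter is widely used to drive genes in aspergilli, followed at 8145 FPKM and 7011, 6846 and 6877 CPM. In all 4 genes the libraries lay within a narrow band, with an SD of log2 CPM of 0.0336, 0.0540, 0.0496 and 0.0182.

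Genes of gluconeogenesis and the glyoxylate cycle took 3 of the 20 places. acuF (ATCC64974_88970, contig 16, 687703 to 689895), phosphoenolpyruvate carboxykinase, the committed step of gluconeogenesis, was at 7475 FPKM and 10102, 9772 and 9718 CPM. icl1 (ATCC64974_15880, contig 3, 1414835 to 1416685), isocitrate lyase, which splits isocitrate into glyoxylate and succinate, was at 5566 FPKM and 7662, 7178 and 7098 CPM. acuE (ATCC64974_31190, contig 4, 1406520 to 1408320), malate synthase, which joins glyoxylate and acetyl-CoA, was at 5499.7 FPKM and 7585, 7236 and 7008 CPM. All 3 were among the 12 highest FPKM values of the strain, and their CPM lay close together across the libraries.

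The cell surface and transport were represented by rco-3 (ATCC64974_35540), a sugar transporter closest to a glucose transporter of Neurospora crassa, at 6599 FPKM and 7897, 7971 and 7887 CPM. MP1 (ATCC64974_1880), a secreted protein closest to a cell wall mannoprotein of A. fumigatus, was at 7982 FPKM and 5933, 5391 and 5464 CPM. A secreted thaumatin-like protein gene, ATCC64974_72960, was at 5639 FPKM and 2628, 2268 and 2319.6 CPM. ATCC64974_2710, a gene with a MARVEL membrane domain and 4 predicted transmembrane segments, was at 5289.8 FPKM and 2123, 2013 and 2028 CPM. The MA234.1 libraries lay close together for each of these 4 genes, as the plot of CPM by library shows.

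Stress and chromatin genes filled other places. hmp (ATCC64974_2170), a flavohemoprotein of the family that detoxifies nitric oxide, was at 4678 FPKM and 4739, 4472 and 4375 CPM. csr-1 (ATCC64974_49090), a peptidyl-prolyl isomerase of the cyclophilin family, which helps proteins fold, was at 6138 FPKM, and the mitochondrial ATPase inhibitor gene ATCC64974_48740 at 4628 FPKM. Histone H3, HHT1 (ATCC64974_101020), reached 5117 FPKM and histone H2A, httA (ATCC64974_95800), 4525 FPKM. ATCC64974_107410, closest to the yeast protein YNL208W of unknown function, stood at 4532 FPKM. The remaining 3 of the 20, ATCC64974_106070, ATCC64974_19160 and ATCC64974_67810, have neither a SwissProt match nor a protein family and are described with the undescribed genes further on. Together the 20 genes took 9.53% ± 0.144 of MA234.1 counts and 5.11% ± 0.0239 of ΔaslA counts (SD, n = 3 each). They were picked for being high in MA234.1, which by itself favours a lower share in ΔaslA. The 20 most counted genes of each library held 12.6%, 12.6% and 12.4% of counts in MA234.1 and 10.4%, 9.49% and 10.3% in ΔaslA.

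Against ΔaslA, edgeR called 48.5% of all 9568 genes tested at an adjusted p under 0.05, with 24.9% lower and 23.5% higher in ΔaslA, so a call was common for any gene. Of the 20 highest FPKM genes of MA234.1, 9 were called lower and 1 higher in ΔaslA, with a median log2 fold change of -0.60 beside 0.00 over all genes. Of the 50 highest, 21 were lower and 3 higher (median -0.66), and of the 500 highest, 192 were lower and 110 higher (median -0.23). These genes were picked for being high in 1 arm of the comparison, so the counts are a description and not a test of the group. The number of calls among the 50 depended on single libraries: it was 14 without MA234.1 replicate 1, 11, 13 and 12 without ΔaslA replicates 1, 2 and 3, and 41 in a fit of only the 6 libraries compared. Calls over all genes moved with the same fits, to 32.2% without MA234.1 replicate 1, to 33.6%, 35.5% and 34.6% without ΔaslA replicates 1, 2 and 3, and to 69.2% in the fit of 6 libraries.

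Among the 20, MP1 fell from 5933, 5391 and 5464 to 3.18, 4.48 and 3.96 CPM (adjusted p = 0.0104 by edgeR, with a log2 fold change of -10.49 and an SE of 2.43). Each SE was derived from the edgeR test statistic of the model of all 9 libraries. It is not the error between the libraries printed beside it. rco-3 fell to 522, 298 and 504 CPM (adjusted p = 0.00841 by edgeR, with a log2 fold change of -4.16 and an SE of 0.74), aciA to 2306, 1556 and 2259 CPM (adjusted p = 0.0111 by edgeR, with a log2 fold change of -2.15 and an SE of 0.51) and the thaumatin-like gene ATCC64974_72960 to 180.2, 319 and 173 CPM (adjusted p = 0.009 by edgeR, with a log2 fold change of -3.42 and an SE of 0.73). Each of these 4 calls held when any of the 9 libraries was left out. icl1 fell to 87.4, 83.2 and 88.8 CPM (adjusted p = 0.0154 by edgeR, with a log2 fold change of -6.40 and an SE of 1.70) and acuE to 30.8, 38.2 and 33.7 CPM (adjusted p = 0.0138 by edgeR, with a log2 fold change of -7.73 and an SE of 1.98), and acuF fell to 682, 627 and 724 CPM (adjusted p = 0.0156 by edgeR, with a log2 fold change of -3.86). The icl1 call was lost without ΔaslA replicate 1 (adjusted p = 0.0534), ΔaslA replicate 2 (adjusted p = 0.0587) or ΔaslA replicate 3 (adjusted p = 0.0521); the acuE call without ΔaslA replicate 1 (adjusted p = 0.0501) or ΔaslA replicate 2 (adjusted p = 0.0532); and the acuF call without ΔaslA replicate 1 (adjusted p = 0.0528), ΔaslA replicate 2 (adjusted p = 0.0582) or ΔaslA replicate 3 (adjusted p = 0.0506). By contrast, the aegerolysin gene at 3539.6, 5486 and 3401 CPM in ΔaslA, adh1 at 8295, 4889.9 and 7958, gpdA at 6654, 4358 and 6602, csr-1 at 3305, 2281 and 3373 and the MARVEL gene at 1895, 2119.9 and 1971 did not pass the test (adjusted p = 0.148, 0.253, 0.513, 0.715 and 0.914). hmp rose to 8963, 12446 and 9100.4 CPM (adjusted p = 0.0499 by edgeR, with a log2 fold change of 1.17 and an SE of 0.43), a call lost without MA234.1 replicate 1 (adjusted p = 0.116), MA234.1 replicate 2 (adjusted p = 0.13), MA234.1 replicate 3 (adjusted p = 0.134), ΔaslA replicate 1 (adjusted p = 0.0872), ΔaslA replicate 2 (adjusted p = 0.135), ΔaslA replicate 3 (adjusted p = 0.0841) or ΔaslB replicate 1 (adjusted p = 0.0519). In the library labelled ΔaslB replicate 2, icl1, acuE and MP1 were nearer to MA234.1 than to ΔaslA: over ΔaslB replicates 1 to 3, icl1 was at 55.8, 5217 and 77.4, acuE at 62.3, 6302 and 29.2 and MP1 at 36.5, 3208 and 3.07 CPM.

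**Figure D2:**
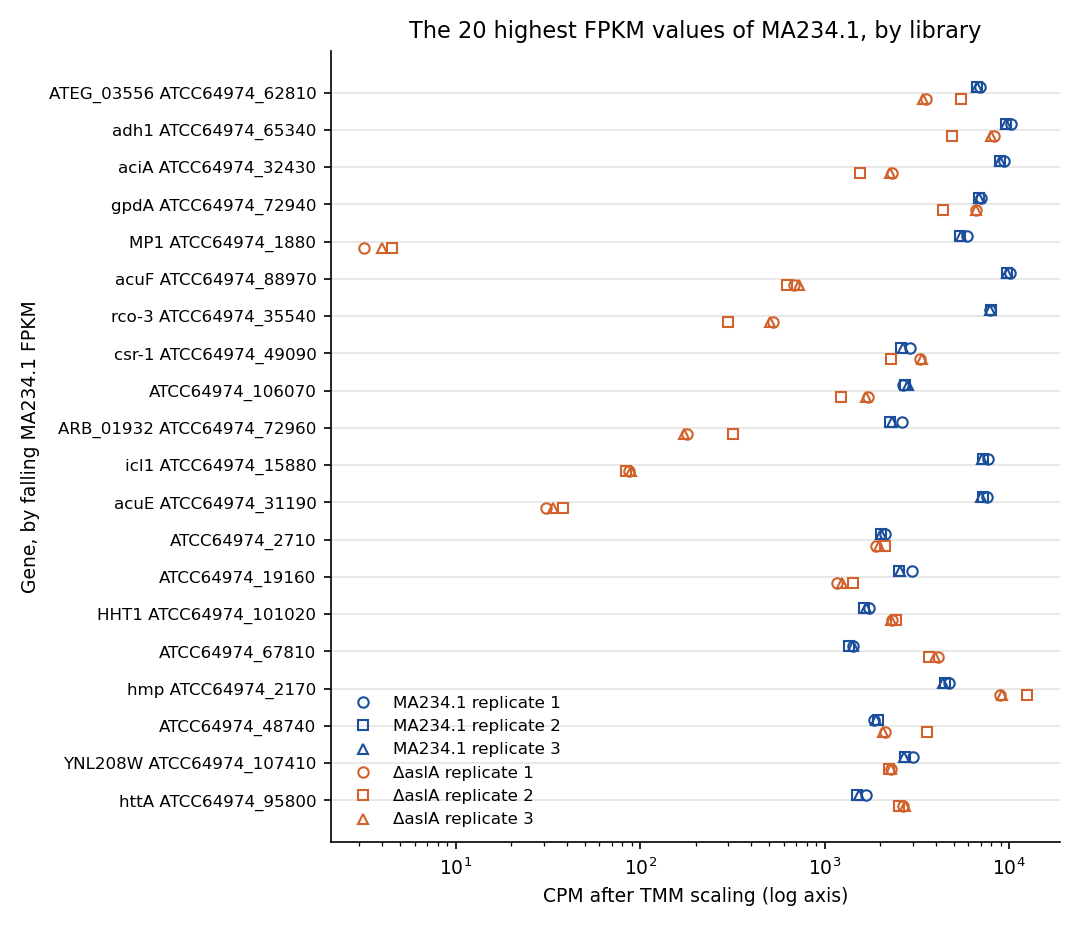
CPM after TMM scaling (horizontal log axis) of the 20 genes with the highest MA234.1 FPKM, ordered from the highest FPKM at the top, with 1 marker per library for MA234.1 (blue) and ΔaslA (orange). The MA234.1 markers nearly coincide, while in ΔaslA MP1 lies between 3.18 and 4.48 CPM and gpdA between 4358 and 6654 CPM.

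Functional lists, made by matching names and protein families of the deposited annotation, sorted 2910 genes that took 47.0%, 46.8% and 46.7% of MA234.1 counts; some genes stand in more than 1 list. The largest shares fell to acetate, propionate and acetyl-CoA supply (3.58% ± 0.0415), the glyoxylate cycle and gluconeogenesis (3.24% ± 0.0499), cytosolic ribosomal proteins (2.73% ± 0.0911), amino acid catabolism (2.71% ± 0.00859), sugar transporters (2.58% ± 0.0161) and oxidative phosphorylation (2.48% ± 0.0506; SD, n = 3 for each share). This order is that of counts alone, in which long transcripts weigh more. With counts scaled by gene span, 42 of the 43 lists moved by more than the replicate SD. For the calls per list given below, the share of all genes called was 48.5%, and 31.0% to 61.0% with 1 library left out.

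**Figure D3:**
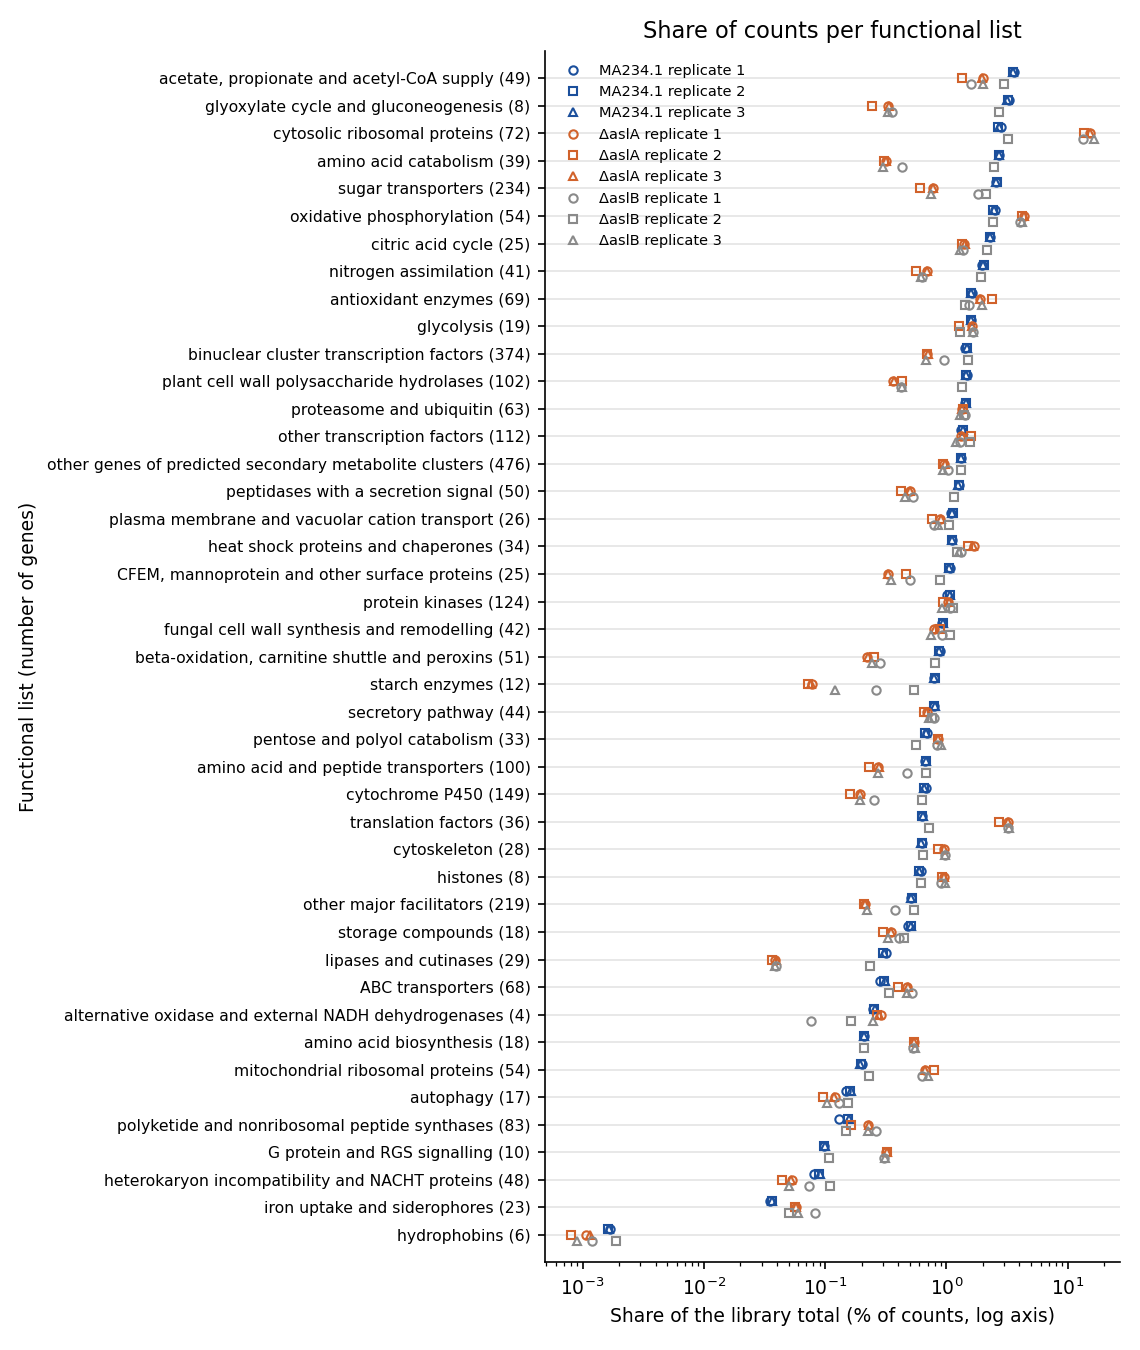
Share of the library total (% of counts, log axis) of each functional list, ordered by its mean in MA234.1, with the number of genes in brackets and 1 marker per library (blue MA234.1, orange ΔaslA, grey ΔaslB). For the 8 genes of the glyoxylate cycle and gluconeogenesis, MA234.1 and the library labelled ΔaslB replicate 2 lie above 2.7% and the other 5 libraries below 0.36%.

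The glyoxylate cycle and gluconeogenesis list was the most concentrated, with 8 genes, a median of 2535 FPKM and 3.29%, 3.24% and 3.19% of counts in the MA234.1 libraries, against 0.329%, 0.243% and 0.334% in ΔaslA and 0.357%, 2.71% and 0.329% in ΔaslB replicates 1 to 3. Beside acuF, icl1 and acuE it held FBP1 (ATCC64974_80570), fructose-1,6-bisphosphatase, the last gluconeogenic step before hexose phosphate, at 2541, 2388 and 2384 CPM and 2601 FPKM. pyc (ATCC64974_78120), pyruvate carboxylase, which replenishes oxaloacetate, was at 3889, 3708 and 3711 CPM and 1405 FPKM. MDH1 (ATCC64974_32750), matched to cytoplasmic malate dehydrogenase, stood at 2469 FPKM. The other 2 members were low: a further pyruvate carboxylase match, Pc (ATCC64974_30470), was at 45.5 FPKM and a further malate dehydrogenase match (ATCC64974_92630) at 1.53 FPKM. In ΔaslA, FBP1 fell to 502, 352 and 501 CPM (adjusted p = 0.0115 by edgeR, with a log2 fold change of -2.43 and an SE of 0.59) and pyc to 892, 567 and 912 CPM (adjusted p = 0.00891 by edgeR, with a log2 fold change of -2.25 and an SE of 0.48), and both calls held whichever library was left out.

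Acetate, ethanol and acetyl-CoA enzymes were abundant beside adh1. acu-8 (ATCC64974_67790), acetyl-CoA hydrolase by name, was at 5161, 4988 and 4999 CPM and 4043 FPKM, and facA (ATCC64974_80800), acetyl-CoA synthetase, which activates acetate, at 4462, 4479.7 and 4373 CPM and 2712 FPKM. pdcA (ATCC64974_57220), pyruvate decarboxylase, which makes acetaldehyde from pyruvate, was at 3931, 3779 and 3875 CPM and 2841 FPKM. The list was uneven: 17 of its 49 genes reached 100 FPKM, while its median was 30.9 FPKM. Of 44 genes tested, 24 were lower and 5 higher in ΔaslA (median log2 fold change -1.85), and 18 to 26 were lower when 1 library was left out. That is 65.9% called, beside 48.5% of all genes tested. facA fell to 215, 154 and 208 CPM in ΔaslA (adjusted p = 0.0092 by edgeR, with a log2 fold change of -4.53 and an SE of 0.98), whereas pdcA stood there at 6889.7, 3739 and 6763 CPM and did not pass the test (adjusted p = 0.267).

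Glycolytic genes took 1.60%, 1.60% and 1.60% of MA234.1 counts and 1.52% ± 0.205 in ΔaslA. After gpdA came fbaA (ATCC64974_56690), fructose-bisphosphate aldolase, at 3210.1 FPKM, enoA (ATCC64974_106860), enolase, at 1546 FPKM, and pgkA (ATCC64974_104560), phosphoglycerate kinase, at 1353 FPKM. Citric acid cycle genes took 2.31%, 2.29% and 2.28%, led by acoA (ATCC64974_98340), mitochondrial aconitase, at 3141 FPKM and 5640.4, 5599.9 and 5529.9 CPM. icdA (ATCC64974_52850), NADP-dependent isocitrate dehydrogenase, followed at 2906 FPKM and 3221, 3130.1 and 3146 CPM, and cit-1 (ATCC64974_7730), citrate synthase, at 2201 FPKM and 2494, 2292 and 2325 CPM. The succinate dehydrogenase subunit gene SDH2 (ATCC64974_3750) stood at 2153 FPKM. icdA fell to 569, 547 and 573 CPM in ΔaslA (adjusted p = 0.0118 by edgeR, with a log2 fold change of -2.49 and an SE of 0.60), in a call that held without each library, while cit-1 at 1857, 1731 and 1895 CPM did not pass the test (adjusted p = 0.189).

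The 33 pentose and polyol genes had a median of 44.2 FPKM, against 2535 FPKM for the 8 genes of the glyoxylate cycle and gluconeogenesis. Their highest members nevertheless reached the level of FBP1. mpdA (ATCC64974_57930), mannitol-1-phosphate dehydrogenase, was highest at 2647 FPKM and 2398, 2346 and 2349.6 CPM, then ARD1 (ATCC64974_20310), an arabinitol dehydrogenase, at 2536 FPKM, a transaldolase gene (ATCC64974_45960) at 454 FPKM and the L-xylulose reductase gene lxr3 (ATCC64974_45780) at 382 FPKM. The β-oxidation, carnitine shuttle and peroxin list took 0.874% ± 0.0105 of counts with a median of 85.0 FPKM. Its highest members were ACADSB (ATCC64974_13060), an acyl-CoA dehydrogenase, at 1029.5 FPKM, PEX11 (ATCC64974_88990), of peroxisome division, at 682 FPKM, YAT1 (ATCC64974_102400), a carnitine acetyltransferase that moves acetyl groups between compartments, at 603 FPKM and 1167, 1128 and 1163 CPM, and fox-2 (ATCC64974_970), the multifunctional β-oxidation enzyme, at 510.2 FPKM. In this list 37 of 45 tested genes (82.2%) were lower in ΔaslA, beside 24.9% of all genes tested. The list had a median log2 fold change of -1.70, and 28 to 40 of its genes were lower in ΔaslA when a library was left out. YAT1 was at 25.1, 20.3 and 27.2 CPM there (adjusted p = 0.0112 by edgeR, with a log2 fold change of -5.57 and an SE of 1.33). Storage compounds were led by gld2 (ATCC64974_17770), a glycerol dehydrogenase, at 546 FPKM, the glycogen synthase gene gsy-1 (ATCC64974_54380) at 486 FPKM and the glycogen phosphorylase gene GPH1 (ATCC64974_101880) at 449.6 FPKM.

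Most respiratory chain genes were high. Of 54 oxidative phosphorylation genes, 53 reached 100 FPKM, and the list took 2.54%, 2.44% and 2.46% of counts with a median of 527 FPKM. aac (ATCC64974_108400), the ADP/ATP carrier, was at 3122 FPKM and 2501, 2302 and 2380.1 CPM, atp-2 (ATCC64974_3610), the β subunit of ATP synthase, at 2449.6 FPKM, and atp-1 (ATCC64974_67560), its α subunit, at 1914 FPKM. The alternative oxidase gene aox1 (ATCC64974_90770), a cyanide-resistant terminal oxidase, was at 2932 FPKM and 2514, 2511 and 2564 CPM, and at 2669, 2471 and 2603 CPM in ΔaslA, where it did not pass the test (adjusted p = 0.964). A second gene matched to aox1 (ATCC64974_93460) was counted in 1 of the 3 MA234.1 libraries and listed at 0 FPKM. External NADH dehydrogenase NDH2 (ATCC64974_103040) was at 31.9 FPKM, and a second match (ATCC64974_93450) at 0.146 FPKM.

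Cytosolic ribosomal proteins took 2.83%, 2.66% and 2.69% of MA234.1 counts, against 15.2%, 13.7% and 15.3% in ΔaslA and 13.4%, 3.20% and 16.4% in ΔaslB replicates 1 to 3. Their median was 733 FPKM, against 16.1 over all genes. RPL44 (ATCC64974_38630) led at 1820.0 FPKM and 628, 549 and 579 CPM, then the ubiquitin fusion gene uep1 (ATCC64974_20820) at 1817 FPKM, RPL43 (ATCC64974_85860) at 1727 FPKM and rpl1001 (ATCC64974_37360) at 1726 FPKM. All 72 were tested and 72 were called higher in ΔaslA, with 64 to 72 called when 1 library was left out and a median log2 fold change of 2.52. Over all genes tested, 23.5% were called higher. Mitochondrial ribosomal proteins took 0.198% ± 0.00354, with a median of 47.2 FPKM. Translation factors took 0.633% ± 0.00492, led by tef1 (ATCC64974_107900), elongation factor 1-alpha, at 1908 FPKM and 2088, 1999 and 2069 CPM, followed by SUI1 (ATCC64974_94880) at 1024 FPKM. In ΔaslA tef1 rose to 11548, 8269 and 11690.2 CPM (adjusted p = 0.0133 by edgeR, with a log2 fold change of 2.36 and an SE of 0.60). tef1 stood at 11285, 1983 and 11767 CPM over ΔaslB replicates 1 to 3, of which replicate 2 was nearest to MA234.1.

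Protein turnover, folding and stress genes were moderate to high. The proteasome and ubiquitin list took 1.42%, 1.44% and 1.46% and 48 of its 63 genes reached 100 FPKM. Polyubiquitin, UBI4 (ATCC64974_81490), was highest at 4487 FPKM and 3450.5, 3559 and 3582 CPM, then the conjugating enzyme UBC1 (ATCC64974_95170) at 2121 FPKM. Chaperones were led by a pair of small heat shock proteins matched to hsp30 (ATCC64974_111310 and ATCC64974_106570) at 2589 and 2127 FPKM, hsp9 (ATCC64974_97890) at 2555 FPKM and hsp90 (ATCC64974_7790) at 1526 FPKM. Among antioxidant enzymes, which took 1.61% ± 0.0302, hmp was followed by sodC (ATCC64974_45950), the copper-zinc superoxide dismutase, at 3204 FPKM and 1433, 1387 and 1402 CPM, the thioredoxin gene TRX1 (ATCC64974_21050) at 2055 FPKM and the peroxiredoxin gene pmp20 (ATCC64974_72150) at 1749 FPKM. ccp1 (ATCC64974_79740), cytochrome c peroxidase, at 1221, 1224 and 1223 CPM, was among the 5 genes with the smallest replicate spread. The autophagy gene atg8 (ATCC64974_50530), whose product coats autophagosomes, was at 1427 FPKM, and the median of that list was 36.7 FPKM.

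Core histones and actin were the highest chromatin and cytoskeleton genes. After H3 and H2A came htb1 (ATCC64974_95810), histone H2B, at 3694 FPKM and 1497, 1452 and 1418 CPM, and hH4-1 (ATCC64974_101030), histone H4, at 2575 FPKM and 747, 695 and 668 CPM. A second H4 gene (ATCC64974_58300) stood at 844 FPKM, histone H1, hhoA (ATCC64974_95130), at 626 FPKM, the variant H2A.Z, HTZ1 (ATCC64974_72920), at 117 FPKM and the centromeric H3, hH3v (ATCC64974_32200), at 21.2 FPKM. Actin, acnA (ATCC64974_32290), was at 1606 FPKM and 1661, 1604 and 1609.8 CPM, cofilin, COF1 (ATCC64974_3590), at 1084 FPKM, profilin, cdc3 (ATCC64974_2800), at 733 FPKM and β-tubulin, benA56 (ATCC64974_103900), at 671 FPKM. Of 2 α-tubulin genes, tubA (ATCC64974_18820) was at 424 FPKM and tubB (ATCC64974_30260) at 192 FPKM. Secretory pathway genes took 0.795% ± 0.00964, with bipA (ATCC64974_90280), the main chaperone of the endoplasmic reticulum, at 855 FPKM and 1366, 1355 and 1343 CPM and the calnexin gene (ATCC64974_16640) at 809.7 FPKM.

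Genes with a secretion signal made up 9.03% of all genes and took 10.5%, 10.3% and 10.3% of MA234.1 counts, against 5.43% ± 0.373 in ΔaslA. Their median was 7.03 FPKM, below the 16.1 of all genes, while 26 of them reached 1000 FPKM or more. Starch enzymes took 0.793%, 0.802% and 0.798%, mostly from glucoamylase and α-glucosidase. GLAA (ATCC64974_75950, contig 13, 678235 to 680407), the glucoamylase for which A. niger is used industrially, was at 2554 FPKM and 3722, 3680.0 and 3660.3 CPM, and aglA (ATCC64974_81710), α-glucosidase, at 1462 FPKM and 3302, 3185 and 3208 CPM. An α-amylase gene matched to amy3 (ATCC64974_10500) was at 579.6 FPKM and acid α-amylase (ATCC64974_89550) at 252 FPKM. The other 8 members ranged down from 49.6 FPKM for another amy3 match (ATCC64974_81720) to 0 FPKM for ATCC64974_26800; 3 genes share the amy3 match, and how reads were divided between near-identical copies is not stated. GLAA fell to 69.0, 53.9 and 61.1 CPM in ΔaslA (adjusted p = 0.00824 by edgeR, with a log2 fold change of -5.91 and an SE of 0.81) and lay at 601, 1731 and 168 CPM in the ΔaslB libraries, in replicate order. aglA fell to 356, 262 and 348 CPM (adjusted p = 0.00744 by edgeR, with a log2 fold change of -3.33 and an SE of 0.43); both calls held without each library.

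Enzymes on plant cell wall polysaccharides took 1.48%, 1.45% and 1.45%, again from few genes: 12 of 102 reached 100 FPKM, 24 were under 1 FPKM and the median was 10.1 FPKM. bglA (ATCC64974_109010), a secreted β-glucosidase, was highest at 2482 FPKM and 4928, 4582 and 4601 CPM. btgE (ATCC64974_67820), named a β-glucosidase but of a family that also acts on the fungal wall, was at 1745 FPKM and 2597, 2409.9 and 2511 CPM. abfB (ATCC64974_30860), which removes arabinose side chains, was at 1198 FPKM and 1380.2, 1259 and 1260.0 CPM, and lacA (ATCC64974_13640), a β-galactosidase, at 419.8 FPKM and 979, 997 and 973 CPM. In ΔaslA bglA fell to 71.7, 42.9 and 74.3 CPM (adjusted p = 0.00841 by edgeR, with a log2 fold change of -6.22 and an SE of 1.19) and lacA to 1.18, 2.27 and 1.17 CPM (adjusted p = 0.0094 by edgeR, with a log2 fold change of -9.30 and an SE of 2.05), while btgE was at 2329, 2836 and 2382 CPM and did not pass the test (adjusted p = 0.988). Of 83 tested genes of this list 44 were lower and 3 higher (median log2 fold change -2.06), and 34 to 47 were lower when 1 library was left out. The share called was 56.6%, beside 48.5% of all genes tested.

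Peptidases with a predicted secretion signal took 1.28%, 1.26% and 1.25%. pepC (ATCC64974_45980), a subtilisin-like vacuolar protease, was at 2570.3 FPKM and 3081, 3132 and 3037 CPM, sed2 (ATCC64974_2180), a tripeptidyl-peptidase, at 2225 FPKM and 3052, 2694 and 2736 CPM, and pep2 (ATCC64974_56920), vacuolar protease A, at 2026 FPKM and 2008, 1937 and 1924 CPM. cpyA (ATCC64974_99660), carboxypeptidase Y, followed at 803 FPKM, so the leading 4 included 3 that are known as vacuolar enzymes. Lipases and cutinases took 0.310% ± 0.00975, led by LIP (ATCC64974_72990) at 2544 FPKM and 2277, 2043 and 2058 CPM, then by a cutinase (ATCC64974_1950) at 516 FPKM. LIP fell to 8.87, 6.53 and 7.77 CPM in ΔaslA (adjusted p = 0.0114 by edgeR, with a log2 fold change of -8.10 and an SE of 1.94), and sed2 fell to 122, 208 and 128 CPM (adjusted p = 0.0091 by edgeR, with a log2 fold change of -4.21 and an SE of 0.91); neither call was lost when 1 library was left out.

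The fungal wall itself was served by a wall protein gene (ATCC64974_66590) at 2201 FPKM and by glucanosyltransferases, which link β-1,3-glucan chains, of which gel4 (ATCC64974_94020) was at 1459 FPKM and gel1 (ATCC64974_63430) at 726 FPKM. Chitin synthases were lower, from CHS6 (ATCC64974_60850) at 137 FPKM and chsG (ATCC64974_9750) at 92.1 FPKM down to CHS3 (ATCC64974_75750) at 0.0721 FPKM. The 6 hydrophobin genes, whose products coat aerial structures, took 0.00168%, 0.00162% and 0.00165% of counts. The highest, a rodA match (ATCC64974_45620), was at 28.9 FPKM and 14.6, 10.8 and 12.1 CPM, above the median of 16.1 FPKM over all genes, a further rodA match (ATCC64974_85500) at 7.52 FPKM and ATCC64974_8720 at 1.44 FPKM. ATCC64974_29880 was at 0.160 FPKM, and both dewA matches (ATCC64974_84110 and ATCC64974_84130) were listed at 0 with no count in MA234.1.

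Sugar transporters formed 1 of the largest families, and its counts were uneven. These genes took 2.57%, 2.59% and 2.57%, but their median was 7.01 FPKM, 60 were under 1 FPKM and 17 had no count. After rco-3, a second gene matched to rco-3 (ATCC64974_29780) was at 3001 FPKM and 3671, 3528 and 3449 CPM, HGT1 (ATCC64974_59500), closest to a high-affinity glucose transporter of Kluyveromyces lactis, at 1676 FPKM and 2235, 2154 and 2162 CPM, and STL1 (ATCC64974_16300), closest to a sugar transporter that in yeast carries glycerol, at 1184 FPKM. The substrate of each in A. niger is not given by the annotation. HGT1 fell to 33.6, 28.3 and 28.6 CPM in ΔaslA (adjusted p = 0.00841 by edgeR, with a log2 fold change of -6.18 and an SE of 0.89) and was at 259, 1184 and 102 CPM over ΔaslB replicates 1 to 3. Amino acid and peptide transporters took 0.676% ± 0.00378, led by ptr2 (ATCC64974_76060), a peptide transporter, at 782 FPKM and 1104, 1059 and 1086 CPM, with a further PTR2 match (ATCC64974_40000) at 563 FPKM and DIP5 (ATCC64974_37950), a dicarboxylic amino acid permease, at 342 FPKM. ptr2 fell to 5.47, 2.84 and 4.51 CPM in ΔaslA (adjusted p = 0.00841 by edgeR, with a log2 fold change of -7.99 and an SE of 1.40). The proton pump gene pma-1 (ATCC64974_52730), which energises uptake at the plasma membrane, was at 3639.8 FPKM and 7799.7, 7930.1 and 7796 CPM, and in ΔaslA at 6038, 5008 and 6159 CPM, which did not pass the test (adjusted p = 0.204). ABC transporters had a median of 4.54 FPKM and were led by Abcd2 (ATCC64974_20120), of the peroxisomal subfamily, at 182 FPKM. No gene of iron uptake reached 100 FPKM, the highest being mirC (ATCC64974_51440), a siderophore transporter, at 46.5 FPKM.

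Amino acid catabolism outweighed amino acid synthesis in the share of counts, with 2.72%, 2.70% and 2.72% for 39 genes against 0.210%, 0.210% and 0.208% for 18 matched biosynthetic genes; the lists differ in size and do not hold whole pathways. In ΔaslA these shares were 0.315% ± 0.00741 and 0.541% ± 0.00323. hibA (ATCC64974_100320), 3-hydroxyisobutyrate dehydrogenase of valine breakdown, was at 2495 FPKM and 2336, 2214 and 2268 CPM. ATCC64974_88690, a 4-hydroxyphenylpyruvate dioxygenase of tyrosine breakdown, was at 2425 FPKM and 2334, 2275 and 2282 CPM, Bckdha (ATCC64974_10850), of branched-chain keto acid breakdown, at 2219 FPKM, and fahA (ATCC64974_88660), fumarylacetoacetase, the last step of tyrosine breakdown, at 2194 FPKM and 2173, 2103 and 2084 CPM. hibA fell to 19.4, 14.3 and 22.1 CPM (adjusted p = 0.00933 by edgeR, with a log2 fold change of -6.93 and an SE of 1.52) and fahA to 17.8, 23.4 and 17.5 CPM (adjusted p = 0.0131 by edgeR, with a log2 fold change of -6.76 and an SE of 1.71) in ΔaslA. Of 36 tested genes of this list, 22 were lower and 2 higher (median log2 fold change -1.83), that is 66.7% called, beside 48.5% of all genes tested. With a library left out 14 to 23 were lower, the 14 without ΔaslA replicate 3. High biosynthetic genes included ilv-2 (ATCC64974_9820), of branched-chain synthesis, at 412 FPKM, aro-8 (ATCC64974_79400), of the aromatic pathway, at 223 FPKM and met26 (ATCC64974_77790), methionine synthase, at 215 FPKM.

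Nitrogen assimilation took 1.98%, 2.03% and 2.01%. gdh-1 (ATCC64974_51140, contig 7, 2629192 to 2632677), NAD-specific glutamate dehydrogenase, which in fungi mainly breaks glutamate down, was among the 3 most counted genes, at 9546, 10046 and 9927 CPM, with 3969 FPKM. glnA (ATCC64974_16280), glutamine synthetase, was at 2513 FPKM and 2273, 2191 and 2154 CPM, uaZ (ATCC64974_57800), uricase, at 1960.3 FPKM, and amdS (ATCC64974_39850), acetamidase, at 1779 FPKM and 2529.8, 2345 and 2356 CPM. amdS fell to 49.8, 40.2 and 53.1 CPM in ΔaslA (adjusted p = 0.00933 by edgeR, with a log2 fold change of -5.66 and an SE of 1.23), whereas glnA at 2184, 1309 and 2159.8 CPM did not pass the test (adjusted p = 0.502). Whether a given amdS transcript is the strain's own gene or a marker gene cannot be told from the table.

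Genes of predicted secondary metabolite clusters were low. The annotation places 559 genes in 75 clusters, which took 1.44%, 1.48% and 1.48% of counts. The median gene was at 1.54 FPKM; 30 clusters had a median under 1 FPKM, 11 a median of 10 FPKM or more, 30 held no gene of 10 FPKM or more, and 10 held no gene of 1 FPKM or more. Backbone synthases were lower still: 52 of 83 polyketide and nonribosomal peptide synthase matches were under 1 FPKM. The highest match, fasA (ATCC64974_23430), at 65.6 FPKM, encodes the fatty acid synthase α subunit and not a secondary metabolite enzyme by its name. Below it stood NRPS2 (ATCC64974_97650) at 19.4 FPKM and 169.8, 216 and 207 CPM, lovF (ATCC64974_75780) at 19.4 FPKM and lgrD (ATCC64974_59190) at 17.8 FPKM. High members of clusters included ERG25 (ATCC64974_75810), of sterol synthesis, at 1764 FPKM and pgkA, the glycolytic gene named above. Cytochrome P450 genes had a median of 1.30 FPKM and 66 of 149 were under 1 FPKM, yet ATCC64974_34770, closest to the trichothecene enzyme TRI11 of Fusarium, stood at 2543 FPKM and 3194, 2809 and 2818 CPM. It fell to 34.2, 47.3 and 34.4 CPM in ΔaslA (adjusted p = 0.0118 by edgeR, with a log2 fold change of -6.25 and an SE of 1.52).

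Transcription factors were less often silent and less often high than genes as a whole. Of 495 genes annotated so, 4 had no count and 50 reached 100 FPKM, against 463 and 1834 of all 11187 genes. The 495 had a median of 13.2 FPKM and took 2.96%, 3.06% and 3.05% of counts. cpcA (ATCC64974_17040), the activator of amino acid synthesis genes on starvation, was highest of the lists of regulators at 2152 FPKM and 1490.0, 1425 and 1415 CPM, followed by the HMG protein nhp6 (ATCC64974_56760) at 1736 FPKM. Of the Zn2Cys6 binuclear cluster class, a cutinase transcription factor match (ATCC64974_66350) led at 421 FPKM and 682, 716 and 707 CPM, then thi1 (ATCC64974_17630) at 363 FPKM.

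The regulators chosen by name spanned a wide range in MA234.1. PACC (ATCC64974_56280), of the response to pH, was at 721 FPKM and 1258, 1164 and 1166 CPM; creA (ATCC64974_62010) was at 331 FPKM and 298, 317 and 306 CPM; stuA (ATCC64974_38800), a regulator of conidiophore form, was at 185 FPKM and 297, 299 and 295 CPM. Lower lay fluG (ATCC64974_2970), an upstream activator of conidiation, at 32.0 FPKM and 56.0, 59.6 and 65.6 CPM, areA (ATCC64974_34540) at 29.2 FPKM and 63.7, 63.3 and 61.3 CPM, and flbA (ATCC64974_61450), the RGS protein that dampens G protein signalling, at 13.8 FPKM and 19.8, 24.0 and 22.6 CPM. Of 2 genes matched to xlnR, ATCC64974_28320 was at 75.3 FPKM and ATCC64974_91960 at 19.5 FPKM; which is the xylanolytic regulator was not tested. Likewise a second brlA match (ATCC64974_15030) was at 1.46 FPKM, and no gene was matched to amyR. In ΔaslA, stuA fell to 74.0, 81.3 and 69.2 CPM (adjusted p = 0.00841 by edgeR, with a log2 fold change of -1.99 and an SE of 0.32) and fluG rose to 323, 313 and 344 CPM (adjusted p = 0.00856 by edgeR, with a log2 fold change of 2.43 and an SE of 0.49), while flbA at 24.7, 21.4 and 28.2 CPM did not pass the test (adjusted p = 0.629). Among G protein subunits, the β-like protein cpc-2 (ATCC64974_16240), which in Neurospora crassa is ribosome-bound, was at 471 FPKM, the α subunit fadA (ATCC64974_101650) at 213 FPKM, the β subunit match GB-1 (ATCC64974_110200) at 119 FPKM and the γ subunit gng-1 (ATCC64974_19680) at 60.7 FPKM. The α subunits gna-3 (ATCC64974_101870) and gna-2 (ATCC64974_55930) were close to each other at 61.3 and 61.0 FPKM. Protein kinases had a median of 22.2 FPKM and were led by hhp1 (ATCC64974_47520), a casein kinase, at 751 FPKM and gsk3 (ATCC64974_32660) at 624 FPKM.

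Annotated genes were higher than unannotated ones in MA234.1. The 8074 genes with a SwissProt match (72.2% of all) took 87.4%, 87.4% and 87.3% of counts and had a median of 20.5 FPKM. Genes with a protein family but no SwissProt match numbered 1080, took 4.64% ± 0.00992 and had a median of 9.83 FPKM. The 2033 genes with neither (18.2%) took 7.99% to 8.02% and had a median of 5.98 FPKM. By structure, 2 or more predicted transmembrane domains marked 1618 genes with 11.4% ± 0.0970 of counts and a median of 12.6 FPKM. Glycoside hydrolases, 246 genes, took 3.73% ± 0.00298, glycosyltransferases, 100 genes, took 0.924% ± 0.0294, and carbohydrate esterases and polysaccharide lyases together were 29 and 10 genes with 0.128% ± 0.00448 and 0.0111% ± 0.000473. Small secreted proteins were divided: 19.5% of 282 were at 0 FPKM and 4.61% were at 1000 FPKM or more, against 5.48% and 1.98% of all genes.

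**Figure D4:**
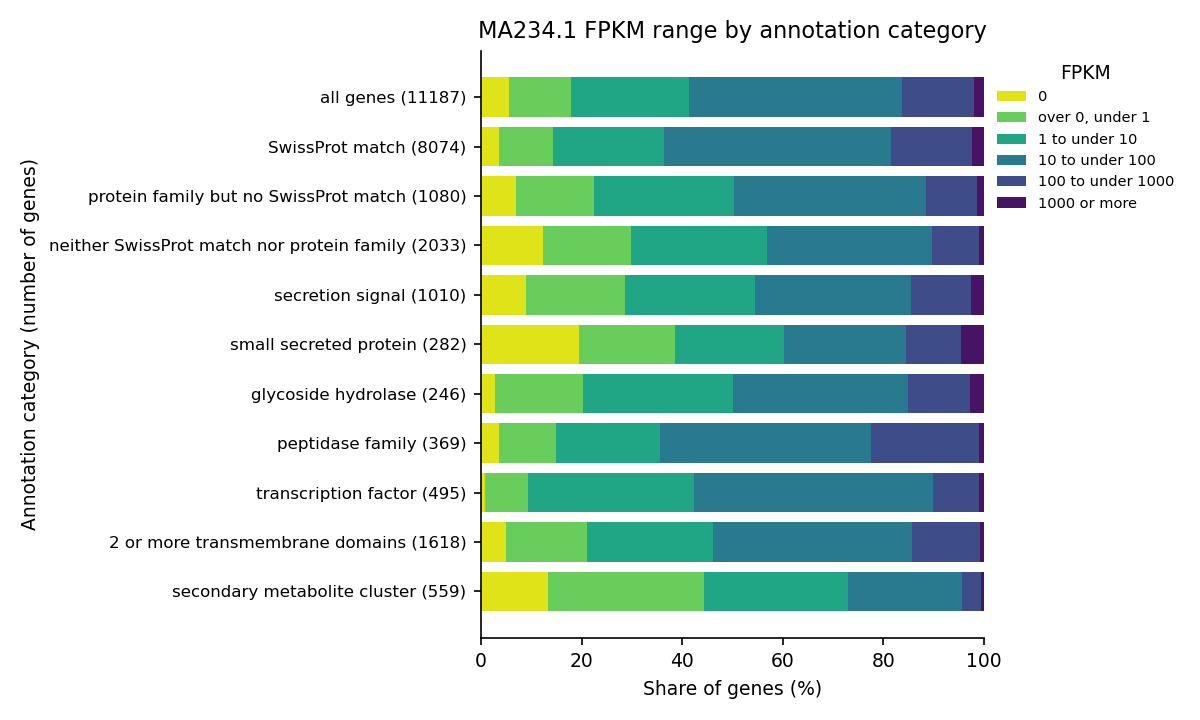
Share of genes (%, horizontal axis from 0) in each range of MA234.1 FPKM, by annotation category with its number of genes in brackets; colours run from 0 FPKM (yellow) to 1000 FPKM or more (dark). Genes of secondary metabolite clusters have 44.4% under 1 FPKM against 17.9% of all genes, and transcription factors 9.29%.

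Undescribed genes were present among the highest, though 1.03% of them reached 1000 FPKM or more, against 1.98% of all genes. The 10 with the highest FPKM had neither a SwissProt match nor a protein family, and ran from 5782 FPKM for ATCC64974_106070 (contig 17, 3218621 to 3219372, span 752 bp) to 1804 FPKM for ATCC64974_67190 (contig 10, 1363167 to 1363863, 697 bp). ATCC64974_106070 stood at 2672, 2715 and 2827 CPM and ATCC64974_19160 (contig 3, 2383511 to 2384304), a predicted small secreted protein, at 5124 FPKM and 2964, 2522 and 2576 CPM. ATCC64974_67810 (contig 10, 1569920 to 1570284), 365 bp in length on the genome, was at 4889 FPKM and 1418, 1348 and 1421 CPM. Further short ones were ATCC64974_22390 with 305 bp at 3577 FPKM, ATCC64974_31040 with 393 bp at 3264 FPKM and ATCC64974_47260 with 369 bp at 3139 FPKM. ATCC64974_8650 was at 2302 FPKM, ATCC64974_28100 at 2057 FPKM and ATCC64974_103660, like ATCC64974_67190 a predicted small secreted protein, at 1946 FPKM. In ΔaslA ATCC64974_106070 fell to 1726, 1225 and 1674 CPM (adjusted p = 0.0337 by edgeR, with a log2 fold change of -0.83 and an SE of 0.27), a call lost without MA234.1 replicate 1 (adjusted p = 0.0831), MA234.1 replicate 2 (adjusted p = 0.0905), MA234.1 replicate 3 (adjusted p = 0.0982), ΔaslA replicate 1 (adjusted p = 0.0735), ΔaslA replicate 2 (adjusted p = 0.104) or ΔaslA replicate 3 (adjusted p = 0.099). ATCC64974_19160 fell to 1159, 1428 and 1238 CPM (adjusted p = 0.0133 by edgeR, with a log2 fold change of -1.08 and an SE of 0.27), a call lost without MA234.1 replicate 1 (adjusted p = 0.0502), ΔaslA replicate 1 (adjusted p = 0.0579) or ΔaslA replicate 3 (adjusted p = 0.0567). ATCC64974_67810, at 4113, 3670.3 and 3963 CPM in ΔaslA, lay above its MA234.1 values but did not pass the test (adjusted p = 0.0583 by edgeR). It was called in 2 of the 9 fits with 1 library left out. ATCC64974_8650 was at 731, 2039.8 and 761 CPM and ATCC64974_28100 at 166, 462 and 161 CPM in ΔaslA, where replicate 2 stood away from the other libraries. These 2 genes did not pass the test either (adjusted p = 0.0615 and 0.131 by edgeR). They were called in 3 and 2 of the same 9 fits. FPKM of very short genes depends strongly on the length the authors' tool assumed, which is not given in the sources used here.

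Several high genes were neighbours on the genome. Stretches of 3 or more adjacent genes that each reached 500 FPKM numbered 4. One of 4 genes on contig 16 (585953 to 592417) held fahA at 2194 FPKM, hmgA, homogentisate dioxygenase, at 1247 FPKM, the undescribed ATCC64974_88680 at 1353 FPKM and the 4-hydroxyphenylpyruvate dioxygenase gene at 2425 FPKM, so 3 of the 4 are enzymes of tyrosine breakdown. A second, on contig 1, held COF1, cox5 of cytochrome c oxidase at 878 FPKM and atp-2. Another, on contig 2, held cit-1, the citrate/oxoglutarate carrier gene YHM2 at 639.96 FPKM and qcr-2 of the cytochrome bc1 complex at 589.8 FPKM. On contig 3 lay CDC15 with 602 FPKM, ATCC64974_22380 with 513 FPKM and ATCC64974_22390. The histone genes httA and htb1 were adjacent on contig 16, and HHT1 and hH4-1 on contig 17. These stretches were looked for after their values had been seen. Whether neighbours share a promoter was not tested, and overlapping genes can share reads because the strand mode of the counting is not stated.

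Silent genes numbered 463 (4.14% of 11187), defined as 0 counts in all 3 MA234.1 libraries; at 37992767 counts in all, 0 counts allows up to 0.0790 CPM over the strain, counting error only. A further 150 genes had a count but a deposited FPKM of 0, which brings the genes at 0 FPKM to 613. In all 3 libraries 9932 genes were counted and 792 in only 1 or 2. Unannotated genes took a larger share of the silent genes than of all genes: 37.4% of the silent genes had neither a SwissProt match nor a protein family against 18.2% of all genes. The median span of silent genes was 1017 bp against 1402 bp. Per category, 32 of 282 small secreted proteins, 62 of 559 cluster genes, 15 of 149 cytochrome P450 genes, 17 sugar transporters and 4 of 495 transcription factors were silent.

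Most genes without a count in MA234.1 had none in ΔaslA either. Of the 463 genes, 193 had no count in any of the 9 libraries and 163 had at least 1 count in ΔaslA, where 68 had more than 3 over the 3 libraries. None averaged 1 CPM or more in ΔaslA, and none passed the filter on low counts, so 0 were tested. ΔaslA itself had 560 genes without a count, and 300 were silent in both strains, that is 64.8% of the MA234.1 list and 53.6% of the ΔaslA list. The 5 silent genes with the highest ΔaslA mean were a casein kinase match, csnk1da (ATCC64974_88070), at 0.444, 0.685 and 1.32 CPM in ΔaslA, the undescribed ATCC64974_19140 at 0.444, 1.58 and 0.0777, a steroid reductase match, VEP1 (ATCC64974_64590), at 0.370, 0.790 and 0.466, RTM1 (ATCC64974_43780) at 0.739, 0.316 and 0.155 and a peptide transporter match, ptr2 (ATCC64974_102710), at 0.370, 0.263 and 0.544 CPM. Against the floor of 3 counts over the MA234.1 libraries these means were 10.2-fold, 8.72-fold, 6.75-fold, 5.02-fold and 4.88-fold higher, with the counting error of the ΔaslA means left out. The 5 genes were picked for these means and were not tested, so the ratios are a description only. ATCC64974_19140 rested mainly on ΔaslA replicate 2.

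The median SD of log2 CPM between its libraries was 0.125, against 0.254 in ΔaslA and 0.619 in ΔaslB, and the common biological coefficient of variation, fitted for each strain alone, was 7.53%, 23.4% and 64.8%. The spread differed between pairs: MA234.1 replicates 2 and 3 had a median absolute log2 difference of 0.105, and the pairs with replicate 1 had 0.165 and 0.163. ΔaslA replicates 1 and 3 were as close as the former, at 0.106, and the ΔaslA pairs with replicate 2 had 0.374 and 0.380. Without MA234.1 replicate 1 the median SD was 0.0744, against 0.115 and 0.117 without replicates 2 and 3. An SD of 2 libraries tends to be lower than an SD of 3, so these values are not comparable with 0.125. Replicate 1 held the highest value in 42.9% and the lowest in 35.9% of genes. Spread fell with level, from a median SD of 0.679 under 1 CPM to 0.229 at 5 to 10 CPM, 0.0584 at 100 to 1000 CPM and 0.0387 above 1000 CPM. For the highest class that is a coefficient of variation of 2.68% where counting alone gives 0.657%, and at 10 to 100 CPM it was 7.73% where counting gives 4.96%.

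**Figure D5:**
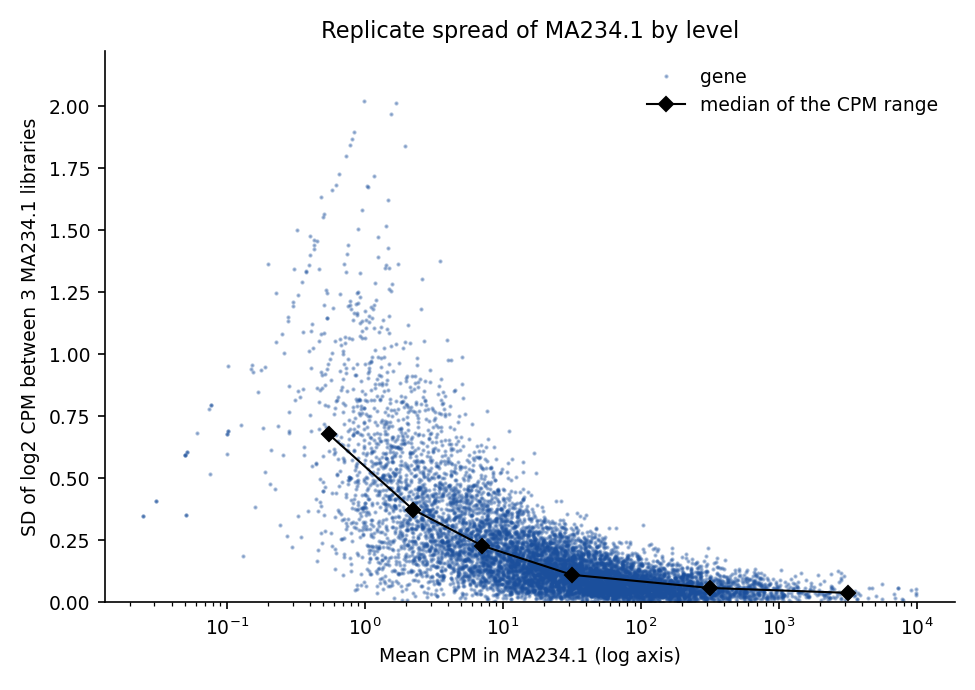
SD of log2 CPM between the 3 MA234.1 libraries (vertical axis) against mean CPM (log axis), 1 point per tested gene (9568), with diamonds at the median of each CPM range. The medians fall from 0.679 below 1 CPM to 0.0387 above 1000 CPM.

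Single genes of at least 5 CPM spread further. acu-15 (ATCC64974_36100), matched to an activator of acetate use, was at 1.93, 6.71 and 6.60 CPM (SD of log2 CPM 0.991), low in replicate 1, and was 1 of the 10 largest spreads. The methyltransferase match STE14 (ATCC64974_38380) was at 8.90, 3.80 and 2.61 CPM (SD 0.879) and the vacuolar sorting match vps51 (ATCC64974_73130) at 8.44, 4.33 and 2.61 CPM (SD 0.823), both high in replicate 1. The other 7, which include the endoglucanase gene eglD (ATCC64974_28980) at 12.8, 4.62 and 5.53 CPM and the mitochondrial DNA polymerase gene mip-1 (ATCC64974_5300) at 5.87, 13.1 and 14.1 CPM, had SDs of 0.63 to 0.77. At the other end, the 5 smallest spreads belonged to the undescribed ATCC64974_90460 at 53.1, 53.0 and 53.0 CPM, ATCC64974_46510 at 146, 146 and 146 CPM, ccp1, the coatomer subunit match ATCC64974_71100 at 443, 442 and 442 CPM and the transporter match TOXA (ATCC64974_109800) at 8.53, 8.50 and 8.52 CPM. These are extremes picked from all genes of at least 5 CPM. Counting alone gives a median coefficient of variation of 10.5% at 5 to 10 CPM and 4.96% at 10 to 100 CPM. Such closeness was therefore not read as a trait of these 5 genes.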

How the data were processed

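RNA from 9 mycelial cultures was made into stranded poly(A) libraries, per the labels' protocols. HISAT2 2.2.1, Cuffdiff, Subread and featureCounts are named in the submitters' processing notes without their roles; the sources used here do not give the genome build or strand setting. Read counts per gene for each library, and 1 FPKM value per gene and strain without replicate error, were deposited by the authors. Counts were scaled by TMM and tested with edgeR 4.0.16 (quasi-likelihood, robust, R 4.3.3, limma 3.58.1) in 1 model of all 9 libraries by strain; filterByExpr left 9568 of 11187 genes, and Benjamini-Hochberg adjusted p under 0.05 was a call. Log2 CPM used a prior count of 2. The scripts were tested on simulated data. Whether cultures were grown on separate occasions is not stated, so p-values measure the spread between these samples. That spread was estimated over all 9 libraries, so it includes the ΔaslB libraries. The SE of a log2 fold change was its absolute value divided by the square root of the quasi-likelihood F, so it carries the same spread. Calls rose from 48.5% of genes tested to 61.0% without ΔaslB replicate 2 and 69.2% in the fit of only the 6 libraries compared.

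Shares are of total counts, and intervals and floors cover counting error only. Genes were named by rule: the 20 highest FPKM values, up to 4 per list by FPKM (every member of lists of up to 12), the 10 largest and 5 smallest replicate spreads at 5 CPM or more, the 5 silent genes highest in ΔaslA, chosen regulators, and the 10 highest undescribed genes. Other genes named beside neighbours were chosen after their values were seen. Gene symbols were taken by the authors' annotation from the best SwissProt match, which can belong to a different species. The members and lists were chosen with earlier results of these data known. Alternatives comprised DESeq2 1.42.0, other scalings and filters, the 6 libraries compared alone, a replicate block and leaving out each library. Python 3.11.15 with numpy 2.4.6, pandas 2.3.3, scipy 1.17.1 and matplotlib 3.10.9 made the tables and plots. The check of the same-numbered libraries is given with the effects of the processing.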

Additional observations from a re-analysis of the deposited data

How the results depend on the processing

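Of 249 named genes tested, 136 were called, and 88 of these were called whichever of the 9 libraries was left out. In the fit of only the 6 libraries compared, 59 named genes gained a call and 0 lost one, so a gene that did not pass the test is not shown to be unchanged. Of the 136, 0 changed sign in the fits that tested them, which held 116 of them in DESeq2, 135 in the fit of 6 libraries, 130 under the stricter filter and 136 in the others. Signs changed in 27 uncalled genes, 0 to 13 per fit, given last. The genes called over the whole table numbered 4638, 6493 in the fit of only the 6 libraries compared and 3008 to 5893 when 1 library was left out (leaving out ΔaslB libraries was chosen after seeing the data). Among the 50 highest FPKM genes 24 were called, 41 in a fit of only the 6 libraries compared and 11 to 36 with 1 library left out. Counts scaled by gene span gave the top 10, 100 and 1000 genes 7.90%, 30.0% and 72.0%, the listed genes 42.1% and the undescribed genes 12.4% of the total; without the 10 most counted genes the last 2 were 43.8% and 8.71%, against 46.8% for the listed genes as reported. Of 43 lists, 42 moved by more than the replicate SD under each of these changes and 0 on leaving out an MA234.1 library. Silent genes numbered 463, 512 to 622 with 1 MA234.1 library left out, 613 when defined by an FPKM of 0 and 1224 when defined by a mean below 3 counts in the shallowest library, so depth limits what is called silent. The median SD was 0.0744 to 0.117 over the 2 libraries kept when 1 was left out, and 0.125 over 3. An SD of 2 libraries tends to be lower than an SD of 3.

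With the replicate number as a block, 4148 genes were called against 4638, and 20 of the 50 highest FPKM genes against 24. Deviations of same-numbered libraries correlated at -0.058, -0.041 and 0.038, so the numbers were not taken to pair the samples.

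The 27 uncalled genes whose log2 fold change (ΔaslA over MA234.1) changed sign had adjusted p-values of 0.537 or more by edgeR as reported, and 0.488 or more after the change. ATCC64974_2710 was at -0.042 as reported and at 0.018 with no filter, -0.083 to 0.019 with 1 library left out. ATCC64974_90770 was at 0.029 as reported and at -0.067 under the stricter filter. ATCC64974_111310 was at -0.085 as reported and at -0.15 to 0.0022 with 1 library left out. ATCC64974_103660 was at 0.14 as reported and at -0.072 to 0.28 with 1 library left out. ATCC64974_67820 was at 0.0058 as reported and at -0.017 by DESeq2, -0.017 with median-of-ratios scaling, -0.0026 with the block, -0.091 under the stricter filter, -0.084 to 0.096 with 1 library left out. ATCC64974_106860 was at 0.014 as reported and at -0.0080 by DESeq2, -0.0080 with median-of-ratios scaling, -0.013 with the block, -0.081 under the stricter filter, -0.054 to 0.16 with 1 library left out. ATCC64974_7790 was at 0.058 as reported and at -0.038 under the stricter filter, -0.021 to 0.19 with 1 library left out. ATCC64974_104560 was at 0.093 as reported and at -0.0022 under the stricter filter, -0.044 to 0.33 with 1 library left out. ATCC64974_106930 was at 0.058 as reported and at -0.039 under the stricter filter, -0.038 to 0.14 with 1 library left out. ATCC64974_22370 was at -0.082 as reported and at -0.19 to 0.13 with 1 library left out. ATCC64974_55950 was at -0.055 as reported and at 0.0094 with no filter, -0.19 to 0.18 with 1 library left out. ATCC64974_106440 was at 0.064 as reported and at -0.032 under the stricter filter. ATCC64974_34670 was at -0.049 as reported and at 0.013 with no filter, -0.087 to 0.035 with 1 library left out. ATCC64974_39500 was at 0.11 as reported and at -0.15 to 0.30 with 1 library left out. ATCC64974_106530 was at -0.031 as reported and at 0.032 with no filter, -0.079 to 0.080 with 1 library left out. ATCC64974_106300 was at 0.069 as reported and at -0.027 under the stricter filter. ATCC64974_95450 was at -0.026 as reported and at 0.034 with no filter, -0.11 to 0.064 with 1 library left out. ATCC64974_102920 was at 0.074 as reported and at -0.022 under the stricter filter. ATCC64974_49750 was at -0.032 as reported and at 0.030 with no filter, -0.059 to 0.013 with 1 library left out. ATCC64974_9750 was at 0.017 as reported and at -0.0055 by DESeq2, -0.0054 with median-of-ratios scaling, -0.079 under the stricter filter, -0.11 to 0.22 with 1 library left out. ATCC64974_106950 was at -0.053 as reported and at 0.0069 with no filter, -0.15 to 0.036 with 1 library left out. ATCC64974_74190 was at 0.20 as reported and at -0.039 to 0.37 with 1 library left out. ATCC64974_16190 was at 0.12 as reported and at -0.059 to 0.25 with 1 library left out. ATCC64974_28980 was at 0.19 as reported and at -0.070 to 0.78 with 1 library left out. ATCC64974_85500 was at 0.085 as reported and at -0.18 to 0.55 with 1 library left out. ATCC64974_36100 was at -0.065 as reported and at 0.057 with the block, -0.45 to 0.19 with 1 library left out. ATCC64974_7510 was at -0.26 as reported and at -0.86 to 0.028 with 1 library left out.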
